A study of Mus musculus with 18 samples.

Results

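Müller glia span the whole thickness of the retina and support its neurons. Measured here were 10 genes used as marks of their identity, in retinas of male mice: Glul, Slc1a3, Rlbp1, Car14, Aqp4, Apoe, Clu, Dkk3, Vim and Sox9. They were chosen by gene symbol, and all 10 were found among the 35006 genes of the count tables. The 18 libraries came from C57BL/6J mice (WT) and from C57BL/6-Ins2Akita/J mice (Akita), each with or without NACET. Ins2Akita is a missense mutation of an insulin gene, carried here on 1 allele, and Akita males become diabetic within weeks of birth without diet or toxin. NACET, the ethyl ester of N-acetylcysteine, is a cysteine donor that enters cells more readily than N-acetylcysteine and feeds glutathione synthesis. Treated mice of both genotypes drank it at 0.33 mg/mL, a daily intake of 50 mg/kg, from 4 to 24 weeks of age, and the others drank water. There were 3 WT, 6 WT + NACET, 4 Akita and 5 Akita + NACET libraries. Whether each library was 1 animal is not stated in the labels, so the p-values measure the spread between libraries.

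Müller cells take up the glutamate that neurons release and turn it into glutamine. They also carry water and potassium between the retina and its vessels, buffer pH, return retinoid to the photoreceptors and secrete lipid carriers. Under stress many of them turn on intermediate filament genes, a state called gliosis. The 10 genes cover these roles. Glul (glutamine synthetase) makes glutamine from glutamate, and Slc1a3 (GLAST) is the transporter that takes glutamate up. Rlbp1 (CRALBP) binds 11-cis retinoid in the visual cycle, Car14 is a membrane carbonic anhydrase, and Aqp4 is the water channel of glial endfeet. Apoe and Clu are secreted apolipoproteins, Dkk3 is a secreted glycoprotein of the Dickkopf family, Vim is an intermediate filament protein, and Sox9 is a transcription factor of glial and progenitor cells. In bulk RNA, fewer cells of a type and less RNA per cell cannot be told apart. Nor can RNA of these genes from Müller glia be told from RNA of the same genes from other cells.

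Promoter sequence, from 250 bases before to 50 bases after the start of transcription, was taken from RefSeq (GRCm38.p6), whose table held usable windows for 6 of the 10 genes. Shown are those of Glul and Car14, the members with a called difference whose windows were at hand, and of Rlbp1, the retinoid carrier, as an example of a window with a SOX match (that of Apoe, not shown, holds 2, at -144 and -54). Capitals mark matches, on either strand, to 3 motifs that do not overlap here: SOX (ACAAAG or ACAATG, written CTTTGT or CATTGT on the other strand), the antioxidant response core (TGACNNNGC) and the CCAAT box (CCAAT). Glul on chromosome 1 (+) holds CCAAT at -113 and -50, Rlbp1 on chromosome 7 (-) holds a SOX match at -42, and Car14 on chromosome 3 (-) holds none of the 3.
Glul: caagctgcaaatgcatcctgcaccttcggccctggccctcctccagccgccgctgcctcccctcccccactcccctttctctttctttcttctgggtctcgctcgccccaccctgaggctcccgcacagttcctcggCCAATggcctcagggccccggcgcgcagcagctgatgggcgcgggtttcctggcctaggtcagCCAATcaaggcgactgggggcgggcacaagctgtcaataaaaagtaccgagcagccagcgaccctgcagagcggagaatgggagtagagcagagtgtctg
Rlbp1: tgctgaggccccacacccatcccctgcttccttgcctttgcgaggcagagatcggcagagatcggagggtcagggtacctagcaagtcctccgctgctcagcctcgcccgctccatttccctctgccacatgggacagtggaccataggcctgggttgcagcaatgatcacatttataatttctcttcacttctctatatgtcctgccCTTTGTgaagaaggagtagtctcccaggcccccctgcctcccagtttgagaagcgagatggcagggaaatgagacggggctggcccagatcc
Car14: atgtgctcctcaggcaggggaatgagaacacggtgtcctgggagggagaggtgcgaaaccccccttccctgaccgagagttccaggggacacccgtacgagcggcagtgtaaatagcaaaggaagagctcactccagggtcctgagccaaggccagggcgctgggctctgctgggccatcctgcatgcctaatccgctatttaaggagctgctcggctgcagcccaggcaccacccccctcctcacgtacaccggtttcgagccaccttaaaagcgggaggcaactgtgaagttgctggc
Of 32851 promoter windows of this length, 28.6% held the SOX letters, 12.4% the antioxidant core and 37.4% a CCAAT box. Such matches describe letters and are not bound sites.

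All 10 genes were well measured. Levels are given as CPM, the counts of a gene relative to the depth of its library, scaled by edgeR's TMM factors, from 11495596 to 17814479 counts in genes per library, and the lowest count of any member was 186 (Vim in Akita replicate 4). Per kilobase of exon, the mean level over the 18 libraries was highest for Apoe (438 ± 156 CPM per kb, SD), followed by Dkk3 (267 ± 55.5), Glul (251 ± 53.0), Clu (227 ± 69.9) and Rlbp1 (155 ± 25.2). These 5 lay above 98.1% of the 16183 genes tested. Car14 (36.3 ± 8.61 CPM per kb), Slc1a3 (19.9 ± 3.53), Vim (12.8 ± 5.73), Aqp4 (10.1 ± 1.96) and Sox9 (9.56 ± 2.30) followed at lower levels. Apoe stood above Dkk3 in 18 of 18 libraries, and so did Rlbp1 above Car14 and Car14 above Slc1a3. The order of Dkk3 over Glul held in 13 libraries, that of Glul over Clu in 14, that of Clu over Rlbp1 in 16, that of Slc1a3 over Vim in 17, that of Vim over Aqp4 in 14 and that of Aqp4 over Sox9 in 10, so Dkk3, Glul and Clu, and likewise Vim, Aqp4 and Sox9, did not separate beyond their spread. RNA of all 10 genes was thus present in every library, which in bulk RNA does not show the cells it came from.

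Before the comparisons, 1 library has to be set apart. Akita replicate 4 was the lowest of the 18 libraries for 9 of the 10 members, while it was the lowest for 18.3% and the highest for 20.2% of all genes tested. Its summed level of the 10 genes was 2176 CPM, against 3431 to 5930 CPM in the other 17 libraries. The summed level of 6 rod markers (Gnat1, Pde6a, Pde6b, Sag, Nrl and Cnga1) was 51576 CPM in it and 24737 to 45908 CPM in the others. The 21 further Müller glia genes summed to 2546 CPM in it, inside the range of the others (2289 to 2757 CPM). Singly they went both ways. Kcnj10, Abca8a, Hes1, Spc25, Prdx6, Mlc1, Dbi and Slc14a1 were lowest in this library. Car2, with 1183 CPM of that sum, Slc38a3 and Ttyh1 were highest in it. Akita replicate 4 had the lowest summed level of 6 ganglion cell markers (589 CPM, against 863 to 1829 CPM, each of the 6 lowest there) and of 7 endothelial markers (96.7 against 120 to 172 CPM). Most of the endothelial sum came from Kdr and Flt1 (means of 73.2 and 60.3 CPM over the 18 libraries). Singly, Flt1 was lowest in Akita replicate 4, and Emcn had no counts there, as in a WT + NACET library. Kdr, Cldn5, Pecam1, Cdh5 and Tek had their lowest values in other libraries. The calls of members and further Müller glia genes in Akita vs WT and Akita + NACET vs Akita are given without Akita replicate 4 as well. Glul in that library was 419 CPM, against 762 to 825 CPM in the other 3 Akita libraries.

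**Figure D1:**
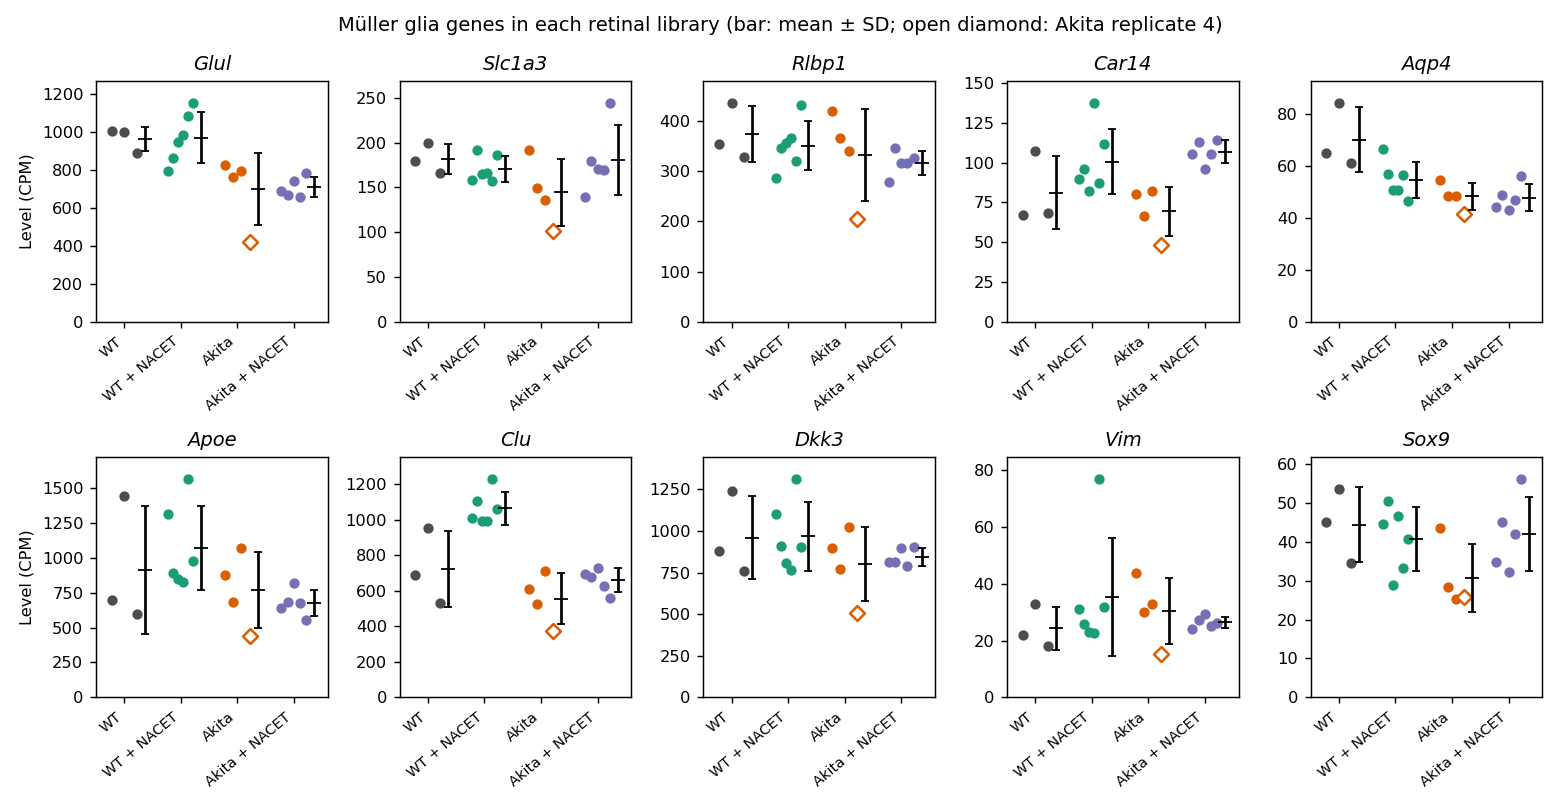
Level of each of the 10 genes in CPM (vertical axis, linear, from 0) in the 4 groups, 1 point a library, with the mean ± SD beside the points (n = 3, 6, 4 and 5). The open diamond is Akita replicate 4, the lowest point in 9 of the 10 panels. Clu in WT + NACET lies above the other groups, and Aqp4 in WT above both Akita groups.

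In Akita against WT, 1 of the 10 genes passed the test, the water channel Aqp4, which was lower. Of all genes tested, 7.64% passed in either direction and 3.68% were lower. Aqp4 was 65.0, 84.1 and 60.9 CPM in the WT libraries and 54.5, 48.1, 48.4 and 41.4 CPM in the Akita libraries. Every Akita library lay below every WT library, and 23.2% of all genes tested did not overlap between these groups, in either direction. The mean fell from 70.0 ± 12.4 to 48.1 ± 5.33 CPM (SD, n = 3 and 4), a log2 fold change of -0.54 ± 0.13 (SE, edgeR adjusted p = 0.0235). The call was lost without Akita replicate 4 (-0.47, adjusted p = 0.0681), without WT replicate 1 (-0.59, adjusted p = 0.108) and without WT replicate 2 (-0.39, adjusted p = 0.133).

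Glul, the glutamine-making enzyme, also separated the untreated groups but missed the threshold. It was 1002, 998 and 888 CPM in WT and 825, 762, 792 and 419 CPM in Akita. The groups did not overlap, as was the case for 23.2% of all genes tested. The log2 fold change was -0.46 ± 0.17 (edgeR adjusted p = 0.0901), and the Akita mean of 700 ± 189 CPM (SD, n = 4) became 793 ± 31.8 CPM (n = 3) without replicate 4, with a log2 fold change of -0.28 (edgeR adjusted p = 0.190). Sox9 was 45.02, 53.7 and 34.5 CPM in WT and 43.7, 28.4, 25.4 and 25.7 CPM in Akita, and these overlapped because of Akita replicate 1. Its log2 fold change was -0.53 ± 0.23 (unadjusted p = 0.0314, rank 3571 of 16183 genes by p, adjusted p = 0.142 in edgeR), and -0.45 without replicate 4 (adjusted p = 0.303). It turned to 0.028 when the outside-exon share of reads, with which Sox9 rose within groups (r = 0.80), entered as a covariate. Of the 10 log2 fold changes 9 were negative, with a median of -0.29 against -0.015 over all genes tested, and the range was -0.54 to 0.34. Without Akita replicate 4, 8 of the 10 were negative and the median was -0.14 against -0.014. Vim, the filament gene, was the exception in sign over all libraries, with group means of 24.3 ± 7.64 and 30.6 ± 11.7 CPM (SD).

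The remaining 6 members gave no call between Akita and WT, and their libraries overlapped. Slc1a3 was 166 to 200 CPM in WT and 101 to 192 CPM in Akita. Rlbp1 spanned 329 to 436 and 205 to 421 CPM, and Car14 67.1 to 108 and 48.4 to 82.0 CPM. These 3 genes had a lower mean in Akita, and the lowest value of each was in replicate 4. Without it the Akita means were 159 ± 29.2 CPM for Slc1a3 and 76.3 ± 8.57 CPM for Car14, against 182 and 81.1 CPM in WT. That of Rlbp1 was 376 ± 41.1 CPM (SD, n = 3), against 374 CPM in WT. Apoe spanned 596 to 1443 CPM in WT and 438 to 1072 CPM in Akita, Clu 528 to 950 and 374 to 713 CPM, and Dkk3 758 to 1239 and 508 to 1027 CPM. WT replicate 2 held the highest WT value of each of these 6 members.

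**Figure D2:**
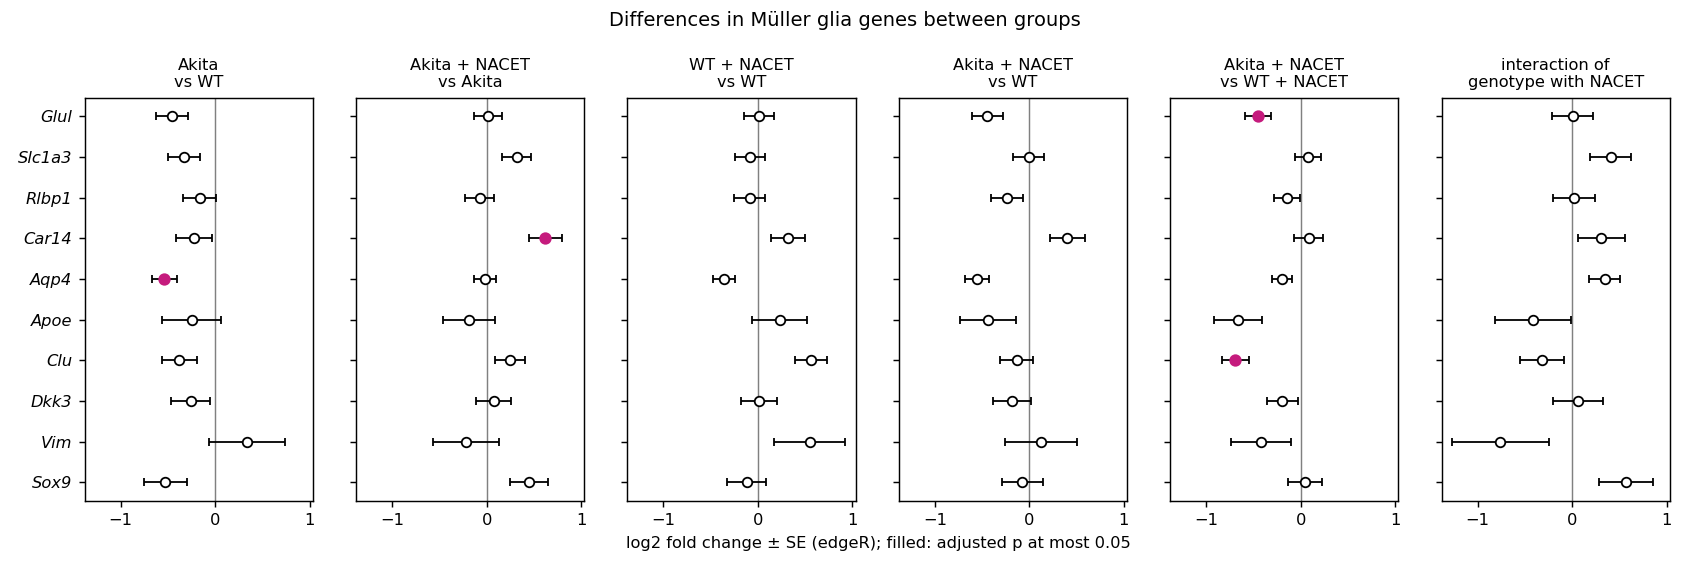
Log2 fold change with its SE (horizontal axis, edgeR) of the 10 genes in the 5 comparisons of groups and in the interaction of genotype with NACET, with filled points at an adjusted p of at most 0.05. The 4 filled points are Aqp4 at -0.54, Car14 at 0.62, Glul at -0.45 and Clu at -0.69.

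NACET in Akita mice was compared with Akita mice on water, to see what the treatment did in diabetic retinas. Car14, the carbonic anhydrase, was the 1 member of 10 that passed, and it was higher. Of all genes tested, 9.65% passed and 4.51% were higher. Car14 was 80.5, 66.5, 82.0 and 48.4 CPM in Akita and 105, 113, 96.1, 106 and 114 CPM in Akita + NACET. Every treated library lay above every untreated one, which 14.1% of all genes did in either direction. The mean rose from 69.3 ± 15.6 to 107 ± 7.33 CPM (SD, n = 4 and 5), a log2 fold change of 0.62 ± 0.17 (edgeR adjusted p = 0.0336). Without Akita replicate 4 the groups still did not overlap, with a log2 fold change of 0.49, and the call was lost (adjusted p = 0.105). The call was also lost without Akita replicate 2 (adjusted p = 0.0584) and without Akita + NACET replicate 2, 4 or 5 (adjusted p = 0.0716, 0.0548 and 0.0855 in edgeR). Reads from Aph1a, which overlaps Car14 on the other strand (chr3:95701691-95708614 for Car14, mm9), cannot be told apart by strand here, and reads over both genes were left out as ambiguous unless a part matched only 1 of them.

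The glutamate transporter Slc1a3 and Sox9 had higher means under NACET in Akita without passing. Slc1a3 was 192, 150, 135 and 101 CPM in Akita and 139, 180, 170, 170 and 245 CPM in Akita + NACET, with a log2 fold change of 0.32 ± 0.15 (unadjusted p = 0.0492, adjusted p = 0.171 in edgeR) and of 0.18 without Akita replicate 4 (adjusted p = 0.435). Sox9 was 34.9, 45.03, 32.2, 42.1 and 56.3 CPM in Akita + NACET, with a log2 fold change of 0.45 ± 0.20 (unadjusted p = 0.0373, adjusted p = 0.145 in edgeR). It was 0.38 without Akita replicate 4 (adjusted p = 0.312) and turned to -0.12 with the outside-exon share as covariate. Both genes overlapped between the groups and were highest in Akita + NACET replicate 5. Aqp4, which was lower in Akita than in WT, was 43.9, 48.6, 42.8, 46.9 and 56.0 CPM in Akita + NACET. These values lay in the range of the untreated Akita libraries, apart from replicate 5, which was above it. Glul was 687, 670, 739, 658 and 786 CPM, within the Akita range of 419 to 825 CPM. The median log2 fold change of the 10 genes was 0.046 against -0.0032 over all genes tested, and 6 were positive. Without Akita replicate 4 the median was -0.085 against 0.00036, and 4 were positive.

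In WT mice, NACET gave no call among the 10 genes by edgeR, where 1.48% of all genes tested were called. An unadjusted p under 0.05 was reached by 2 members, Clu and Aqp4, and DESeq2 called 1, Clu. The share of all genes tested at an unadjusted p under 0.05 was not counted in any comparison. Such counts of members therefore have no background beside them. Clu, the secreted chaperone clusterin, was 686, 950 and 528 CPM in WT. In the 6 WT + NACET libraries it was 991 CPM at the lowest, 1034 CPM at the median and 1230 CPM at the highest. All treated libraries lay above all untreated ones, as 11.5% of all genes did in either direction, and the log2 fold change was 0.56 ± 0.17 (edgeR adjusted p = 0.0959, DESeq2 adjusted p = 0.0254). Aqp4 moved the other way, with a lowest of 46.6, a median of 53.5 and a highest of 66.4 CPM under NACET, and a log2 fold change of -0.36 ± 0.12 (unadjusted p = 0.00690, adjusted p = 0.119 in edgeR). Its groups overlapped through WT + NACET replicate 1. The median over the 10 genes was 0.012 against -0.014 over all genes tested.

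Akita + NACET was then set against WT + NACET, the comparison of genotypes under treatment, and 2 of the 10 genes passed, both lower. Of all genes tested, 13.3% passed and 7.26% were lower. Clu was 696, 679, 729, 627 and 559 CPM in Akita + NACET, and each value lay below the WT + NACET minimum of 991 CPM. The mean was 658 ± 66.6 against 1064 ± 92.1 CPM (SD, n = 5 and 6), a log2 fold change of -0.69 ± 0.15 (edgeR adjusted p = 0.00580). Clu passed when any 1 of the 18 libraries was left out. Glul was 795 CPM at the lowest, 964 CPM at the median and 1153 CPM at the highest in WT + NACET, all above the Akita + NACET maximum of 786 CPM. Its log2 fold change was -0.45 ± 0.14 (edgeR adjusted p = 0.0333), and the call was lost without any 1 of Akita + NACET replicates 1, 2, 4 and 5 or WT + NACET replicates 3, 4, 5 and 6 (adjusted p 0.0502 to 0.0761, with a fold change of -0.40 to -0.49). Glul (chr1:155747074-155756853, mm9) overlaps annotated genes on both strands, and the same limit on shared reads holds as for Car14.

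Apoe, the lipid carrier, was the third member without overlap in that comparison. It was 641, 680, 816, 678 and 557 CPM in Akita + NACET. In WT + NACET it was 829.04 CPM at the lowest, 933 CPM at the median and 1568 CPM at the highest. Non-overlap held for 8.01% of all genes tested, and the log2 fold change of -0.67 ± 0.25 did not pass (edgeR adjusted p = 0.0857). It passed with only the 2 groups in the fit (adjusted p = 0.0218) and without WT replicate 2 (adjusted p = 0.0422), and with pigment epithelium markers as a covariate it was -0.23 (adjusted p = 0.655). The median over the 10 genes was -0.20 against -0.00015 over all genes tested. This comparison and that of Akita + NACET with Akita share the Akita + NACET libraries, and Akita vs WT and WT + NACET vs WT share the WT libraries, so their values are given side by side and not as separate evidence.

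Akita + NACET against WT, treated diabetic mice against untreated controls, gave no call among the 10 genes by edgeR, while 3 had an unadjusted p under 0.05 and DESeq2 called 1, Aqp4 (adjusted p = 0.0499). Only 0.00618% of all genes tested were called in edgeR, and few genes of any kind separated these groups. Aqp4 was lower with no overlap (log2 fold change -0.55 ± 0.12, edgeR adjusted p = 0.436) and ranked 6 of all genes by p. Glul was also lower with no overlap (-0.44 ± 0.16, unadjusted p = 0.0123 in edgeR), and 4.17% of all genes did not overlap. Car14 had a higher mean (0.40 ± 0.19, unadjusted p = 0.0461 in edgeR) with overlap. The interaction of genotype with NACET, which asks whether the treatment effect differed between Akita and WT, called none of the 10 genes by edgeR or DESeq2, and none had an unadjusted p under 0.05, although 20.3% of all genes were called. Its median over the 10 genes was 0.040 against 0.0042 over all genes tested, and -0.13 against 0.0064 without Akita replicate 4.

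The members that moved were beside changes in markers of other cells, given here without a weighing. The summed level of 10 pigment epithelium markers (Rpe65, Best1, Lrat, Rdh5, Ttr, Tyr, Tyrp1, Pmel, Dct and Mlana) was 61.0 to 194 CPM in Akita, 61.2 to 388 in Akita + NACET, 105 to 750 in WT and 366 to 938 in WT + NACET. Each of the 10 had at least 6 counts in every library. WT replicate 2 had 750 CPM and the other 2 WT libraries 105 and 125 CPM. WT replicate 2 also had the highest WT level of every member but Glul, and so of both Clu and Apoe. The WT + NACET libraries, with the highest Clu, all lay above both of these WT libraries in pigment epithelium markers. Of these markers none was called in Akita vs WT, Akita + NACET vs Akita or WT + NACET vs WT, and 1 of 10 (Tyr) was lower in Akita + NACET vs WT + NACET. With the summed markers as a covariate, chosen after seeing the data, the log2 fold change of Clu in Akita + NACET vs WT + NACET became -0.42 (adjusted p = 0.131) and that of Glul -0.41 (adjusted p = 0.206). With the same covariate, that of Car14 in Akita + NACET vs Akita became 0.45 (adjusted p = 0.0925) and that of Aqp4 in Akita vs WT -0.51 (adjusted p = 0.0634), in edgeR.

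The summed level of the 6 rod markers was 35793 to 51576 CPM in Akita and 24737 to 33126 CPM in Akita + NACET, with 4 of 6 called lower under NACET, and 2 of 6 were called higher in Akita vs WT (27281 to 38118 CPM in WT). Set against WT + NACET, Akita + NACET had 2 of 6 lower (median log2 fold change -0.35), and the interaction called all 6 lower. Gnat1, Pde6a, Pde6b, Nrl and Cnga1 were highest in Akita replicate 4. Without that library, 1 of 16197 genes was called in Akita + NACET vs Akita and 234 in Akita vs WT. Calls of the rod and endothelial markers are not given singly without it. The part of this rod signal in the Aqp4 and Car14 differences was not tested. Microglia markers were called lower in 4 of 7 in Akita + NACET vs WT + NACET (summed 20.2 to 32.9 against 37.2 to 52.0 CPM). Of 7 endothelial markers 1, the tight junction gene Cldn5, was lower in Akita vs WT (-2.11, edgeR adjusted p = 0.0365) and higher in Akita + NACET vs Akita (2.14, adjusted p = 0.0239). Cldn5 had few counts, with a mean of 1.35 CPM over the 18 libraries and a lowest count of 2. Its group means were 1.94 CPM in WT, 0.44 in Akita and 1.96 in Akita + NACET. Of 5 bipolar cell markers 1, Prkca, was higher in Akita + NACET vs WT + NACET (0.34, edgeR adjusted p = 0.0388). Cldn5 and Prkca were both named after their values were seen. The share of reads outside exons, a mark of library quality, was 16.3 ± 1.24% in WT, 12.7 ± 2.74% in WT + NACET, 11.5 ± 1.83% in Akita and 16.4 ± 2.11% in Akita + NACET (SD). Akita and Akita + NACET differed in it (two-sided exact permutation p = 0.00794, the smallest that 4 against 5 allows, adjusted p = 0.0476 over 6 pairs of groups). WT and Akita did not overlap in it (14.9 to 17.1% against 9.67 to 13.3%), with exact permutation p = 0.0286, the smallest that 3 against 4 allows (adjusted p = 0.0714). WT + NACET and Akita + NACET overlapped (9.55 to 16.5% against 14.3 to 19.8%, exact permutation p = 0.0455, adjusted p = 0.0714). With this share as a covariate none of the 4 calls held. Since the share moved with the groups, its part and that of the group could not be fully told apart in these fits. Aqp4 in Akita vs WT became -0.27 (adjusted p = 0.410), and Car14 in Akita + NACET vs Akita became 0.48 (adjusted p = 0.633). In Akita + NACET vs WT + NACET, Glul became -0.43 (adjusted p = 0.243) and Clu -0.67 (adjusted p = 0.0798) in edgeR.

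**Figure D3:**
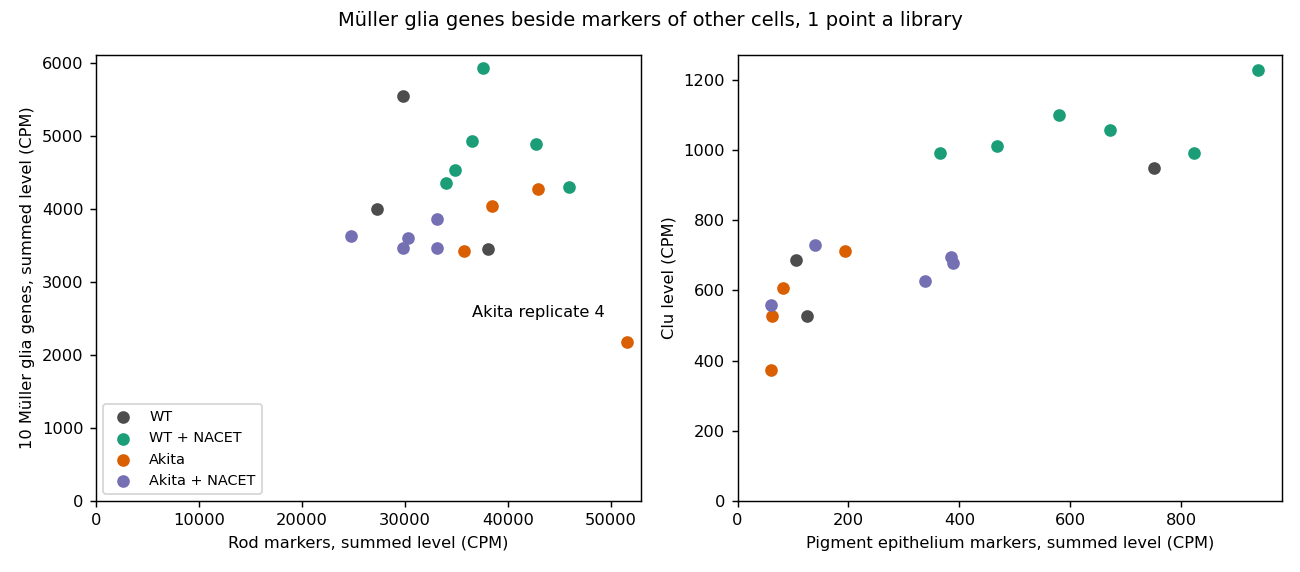
Left, summed CPM of the 10 Müller glia genes (vertical axis) against summed CPM of 6 rod markers (horizontal axis); right, Clu in CPM against summed CPM of 10 pigment epithelium markers, both on linear axes from 0, 1 point a library and coloured by group. Akita replicate 4 stands at 2176 CPM of Müller glia genes and 51576 CPM of rod markers, and the 6 WT + NACET libraries have both high Clu (991 to 1230 CPM) and high pigment epithelium markers (366 to 938 CPM).

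The 10 genes were also compared with each other within groups, as log2 CPM minus the group mean over the 18 libraries. All 45 pairs had a positive Pearson r, from 0.12 to 0.93 with a median of 0.53, and 13 pairs had an adjusted p of at most 0.05 (permutation within groups, 100000 draws). Pairs of other genes were not measured in this way, so whether these counts exceed those of any genes was not tested. Without Akita replicate 4 the median r was 0.38 and the lowest -0.067. The 3 secreted proteins and Vim formed 1 group of high values. For Apoe and Dkk3, r was 0.93 (permutation adjusted p = 0.00270) and rho 0.88 (adjusted p = 0.00549), with r = 0.91 when WT + NACET replicate 5 and WT replicate 2 were left out. Apoe and Clu gave r = 0.89 (permutation adjusted p = 0.00315) and rho = 0.83 (adjusted p = 0.00549), with r = 0.86 without those libraries. Dkk3 and Vim gave r = 0.88 (permutation adjusted p = 0.00540) and rho = 0.88 (adjusted p = 0.00549), with r = 0.84 without Akita replicate 4 and WT + NACET replicate 5.

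Among the other pairs, Slc1a3 and Rlbp1 gave r = 0.77 (permutation adjusted p = 0.00603) and rho = 0.77 (adjusted p = 0.00549), with r = 0.85 without Akita + NACET replicate 5 and Akita replicate 1. Glul and Rlbp1 gave r = 0.84 (permutation adjusted p = 0.0262) and rho = 0.67 (adjusted p = 0.0535), but r fell to 0.59 without Akita replicate 4 and WT + NACET replicate 1. Slc1a3 and Sox9 gave r = 0.73 (permutation adjusted p = 0.00945) and rho = 0.70 (adjusted p = 0.0254), with r = 0.54 without the same 2 libraries as for Slc1a3 and Rlbp1. The glutamate genes Glul and Slc1a3 did not pass (r = 0.64, permutation adjusted p = 0.0631, rho = 0.47, adjusted p = 0.142), and r was 0.43 without Akita replicate 4 and WT + NACET replicate 1. Rlbp1 and Car14 gave r = 0.73 (permutation adjusted p = 0.0368) and rho = 0.73 (adjusted p = 0.0284), with r = 0.60 without Akita replicates 1 and 4. Aqp4 passed with Sox9 (r = 0.67, permutation adjusted p = 0.0340, rho = 0.66, adjusted p = 0.0392) and with Dkk3 (r = 0.68, permutation adjusted p = 0.0340, rho = 0.70, adjusted p = 0.0265). Without WT + NACET replicate 1 and WT replicate 2 these were r = 0.67 and 0.60. Sox9 had r of 0.12 to 0.23 with Apoe, Clu, Dkk3 and Vim. CPM allow for the depth of a library, but its genes share its cell mixture, which this measure does not remove.

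**Figure D4:**
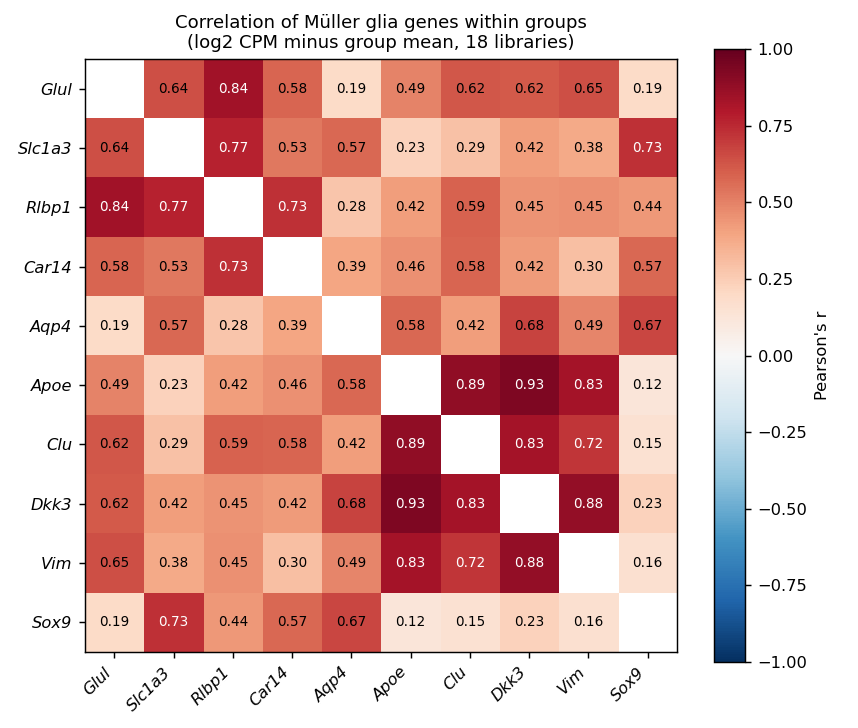
Pearson's r between the 10 genes, calculated on log2 CPM minus the group mean over 18 libraries, with the value in each cell and colour from -1 to 1. The block of Apoe, Clu, Dkk3 and Vim reaches 0.93, and Sox9 has its highest values with Slc1a3 (0.73) and Aqp4 (0.67).

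Of 30 relations of the members with the summed pigment epithelium markers, the summed rod markers and the share of reads outside exons, 1 passed the correction by Pearson's r. Sox9 rose within groups with the share of reads outside exons (r = 0.80, permutation adjusted p = 0.00360, and rho = 0.82, adjusted p = 0.00420), with r = 0.74 without Akita + NACET replicate 5 and WT + NACET replicate 2. Aqp4 followed with r = 0.68 (permutation adjusted p = 0.0574) and rho = 0.69 (adjusted p = 0.0533), and r = 0.66 without the same libraries. With the summed pigment epithelium markers, r was 0.67 for Clu, 0.61 for Apoe and 0.55 for Car14 (permutation adjusted p = 0.0651, 0.0651 and 0.0819), rho was 0.65, 0.62 and 0.61 (adjusted p = 0.0624 for each), and r was 0.54, 0.48 and 0.59 without Akita + NACET replicate 5 and WT replicate 2. With the summed rod markers, r was negative for all 10 genes, from -0.66 (Sox9) to -0.15 (Apoe), and none passed by r. Without Akita replicate 4 and WT replicate 3 it was positive for Apoe (0.28), Clu (0.13) and Dkk3 (0.024). Slc1a3 gave r = -0.66 (permutation adjusted p = 0.0651) and rho = -0.74 (adjusted p = 0.0447), so that it passed by rank alone, with r = -0.54 without Akita replicate 4 and WT replicate 3. Glul gave r = -0.60 (permutation adjusted p = 0.0651) and rho = -0.51 (adjusted p = 0.172), with r = -0.42 without those libraries.

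The 5 other genes most like the members were ranked by Pearson's r with the mean of the members' standardized log2 CPM over the 18 libraries, among 14462 genes with a mean of at least 1 CPM. They were Kank2 (r = 0.93, an adaptor of cell adhesions), Ppap2b (0.91, a lipid phosphate phosphatase), Msn (0.90, moesin, which links membrane to actin), Rcn2 (0.90, a calcium-binding protein of the endoplasmic reticulum) and Slc25a13 (0.90, the mitochondrial aspartate-glutamate carrier). By Spearman's rho they were 0.80, 0.84, 0.77, 0.68 and 0.83, which placed them 28.5, 11.5, 59, 211 and 15 among the 14462. The mean they were set against was -2.22 in Akita replicate 4 and -0.54 in the next lowest library. Without that library, an alternative chosen after seeing the data, r was 0.83, 0.83, 0.83, 0.75 and 0.77, and the ranks were 3, 7, 5, 45 and 35.

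A list of 21 further Müller glia genes was read in the same tests, all 21 being measured. In Akita vs WT 1 was lower and none higher, and in Akita + NACET vs Akita 2 were higher and none lower, where 7.64% and 9.65% of all genes were called. Abca8a, a lipid transporter of the ABC family, was 87.1, 97.3 and 82.7 CPM in WT, 62.4, 58.8, 62.7 and 44.7 CPM in Akita and 54.4, 84.3, 72.2, 78.9 and 112 CPM in Akita + NACET. It fell by 0.64 on the log2 scale in Akita vs WT (SE 0.17, edgeR adjusted p = 0.0330). Those 2 groups did not overlap, as was the case for 23.2% of all genes tested. Abca8a was higher in Akita + NACET vs Akita (0.49 ± 0.15, edgeR adjusted p = 0.0490, with overlap). The urea transporter Slc14a1 was higher in Akita + NACET vs Akita (0.51 ± 0.15, edgeR adjusted p = 0.0422). Without Akita replicate 4 all 3 calls were lost. The Abca8a call in Akita vs WT was also lost without WT replicate 1 or 2. The Abca8a call in Akita + NACET vs Akita was lost in 15 of the 18 leave-outs of 1 library and that of Slc14a1 in 6. For NACET in WT mice edgeR called none of the 21, with 2 at an unadjusted p under 0.05 and 1 called by DESeq2 (Rdh10), where edgeR called 1.48% of all genes. In Akita + NACET vs WT edgeR and DESeq2 called none, with none at an unadjusted p under 0.05 (0.00618% of all genes called in edgeR). In Akita + NACET vs WT + NACET, with 13.3% of all genes called, 2 were lower, Dbi (-0.55 ± 0.14, adjusted p = 0.0161), a binder of acyl-CoA, and Spc25 (-0.68 ± 0.20, adjusted p = 0.0366), known as a kinetochore protein and present on lists of Müller cell markers. Spc25 lost its call in 7 of the 18 leave-outs and Dbi in 1, without Akita + NACET replicate 5. The interaction called 3 of the 21 as higher and 1 as lower, with 20.3% of all genes called. In each comparison the share of the 21 was near or under that of all genes. The median log2 fold changes of the 21 were -0.18, 0.081, 0.0033, -0.097, -0.093 and -0.0085 in the order in which the comparisons are listed in this paragraph.

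Gfap, the filament gene that rises in gliosis and marks astrocytes too, was 78.6, 33.0 and 50.6 CPM in WT, 117, 62.4, 85.5 and 33.2 CPM in Akita and 87.7, 63.2, 79.2, 50.5 and 25.9 CPM in Akita + NACET. In WT + NACET it was 129 CPM at the lowest, 183 CPM at the median and 269 CPM at the highest, above all other libraries. The log2 fold change was 1.83 ± 0.44 in WT + NACET vs WT, which did not pass (edgeR adjusted p = 0.0539), and -1.65 ± 0.36 in Akita + NACET vs WT + NACET, which did (adjusted p = 0.0104). The latter call held in all 18 leave-outs of 1 library and was lost with either covariate. It became -1.41 with the outside-exon share of reads (edgeR adjusted p = 0.118) and -1.49 with pigment epithelium markers (adjusted p = 0.0975). Vim, the other filament gene, was highest in WT + NACET replicate 5 at 77.1 CPM, with the other 5 libraries of that group between 22.8 and 31.9 CPM, and gave no call in any comparison.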

How the data were processed

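Poly(A) RNA of mouse retinas was sequenced in 18 libraries, grouped by the sample labels. According to the methods and the submitters' processing notes, the authors made single-end TruSeq libraries, aligned the reads to mm9 with TopHat2 2.1.0 and counted reads per gene with HTSeq 0.11.2 without regard to strand. The deposited values are raw counts. Reads aligned to several places or ambiguous between genes were left out, which can lower the counts of paralogs and overlapping genes. As the authors did, ribosomal RNA genes were removed (206 gene names, 0.977% of counts on average), as was an entry with no name (0.0054%). No pair of replicates agreed within sampling noise (chi-square per gene 4.67 to 50.8).

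Counts were tested in R 4.3.3 by the quasi-likelihood method of edgeR 4.0.16 (F test, TMM, default expression filter with minimum count 10 and minimum total 15, robust dispersion, all 4 groups in 1 fit), leaving 16183 genes. Adjusted p-values follow Benjamini and Hochberg over these genes, with calls at 0.05 and no minimum fold change. SEs were derived from the F statistic. DESeq2 1.42.0 was an alternative, beside leaving out libraries, no filter, other size factors, only the 2 groups compared, the ribosomal genes kept, a replicate block and covariates. The test was tested on simulated data. CPM are TMM-scaled and the log2 CPM of correlations had a prior count of 2. Errors are the spread between libraries.

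The members and lists were chosen with earlier results of these data known. The text names all 10 members, the genes called in the further list of 21, Gfap, and the 5 genes most like the members. The Car14 position is that of the mm9 annotation. The rod list was left with 6 markers, since another is not reported here.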

Additional observations from a re-analysis of the deposited data

Results flagged for a closer look

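In 3 of 33 groups of 4 to 6 libraries tested, 1 library stood apart from the rest by Dixon's criterion, which chance meets in about 1 of 20 groups. Glul in Akita replicate 4 was 419 CPM, below the other 3 Akita libraries. Sox9 in Akita replicate 1 was 43.7 CPM, above the other 3, and without that library Sox9 was called lower in Akita vs WT (log2 fold change -0.74, edgeR adjusted p = 0.0485). Vim in WT + NACET replicate 5 was 77.1 CPM, and that library also had the highest summed pigment epithelium level, 938 CPM.

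The NACET effect differed between the genotypes by the interaction test of edgeR for 5 genes outside the 10 members, Gfap and 4 of the 21 further Müller glia genes, where it called 20.3% of all genes. For Abca8a, the lipid transporter, the effect in Akita minus that in WT was 0.82 on the log2 scale (SE 0.22, adjusted p = 0.0161). For Sox8, a transcription factor of the SOX family, it was 0.85 (SE 0.30, adjusted p = 0.0479), and for Gpr37, a receptor of glial cells, 0.67 (SE 0.20, adjusted p = 0.0264). For Slc38a3, a glutamine transporter, it was -0.56 (SE 0.19, adjusted p = 0.0433), and for Gfap -2.11 (SE 0.57, adjusted p = 0.0209). Without WT replicate 2, and with the outside-exon share of reads as covariate, none of the 5 passed. Of the 18 leave-outs of 1 library, Sox8 lost its call in 12, Slc38a3 in 13, Gpr37 in 2, Abca8a in 1 and Gfap in 1.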

How the results depend on the processing

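The alternatives were compared on 25 listed fold changes, giving 645 values, of which 519 kept direction and side of the threshold, 117 lost the call, 6 gained one and 3 reversed. Some of the 25, such as Glul and Sox9 in Akita vs WT, were not called in the main fit and had no call to lose. The 519 therefore do not measure how well the calls held. The reversals came with the outside-exon share of reads as covariate: Sox9 in Akita vs WT was 0.028, Sox9 in Akita + NACET vs Akita -0.12, and Sox8 in the interaction -0.020. The cause was not tested. Of 46 other member fold changes with 1186 values, 80 changed sign and 1 gained a call. In Akita vs WT the count of the 10 members called (1) became 0 with only the 2 groups compared, with the outside-exon share and with pigment epithelium markers as a covariate, and 0 to 2 when a library was left out. The count of the 21 further genes (1) became 2 with DESeq2, 0 with only the 2 groups, the replicate block and either covariate, and 0 to 2 without a library. In Akita + NACET vs Akita the members (1) became 0 with no filter, the replicate block and either covariate, and 0 to 1 without a library, while the further genes (2) became 4 with DESeq2, 1 with no filter, 0 with only the 2 groups, the block and either covariate, and 0 to 2 without a library. In WT + NACET vs WT the members (0) became 1 and the further genes (0) became 1 with DESeq2, and the members were 0 to 1 and the further genes 0 to 0 without a library. In Akita + NACET vs WT the members (0) became 1 with DESeq2. In Akita + NACET vs WT + NACET the members (2) became 3 with only the 2 groups (Apoe added), 1 with the block and 0 with either covariate, and 1 to 3 without a library, while the further genes (2) became 5 with DESeq2, 1 with no filter and 0 with either covariate, and 0 to 4 without a library. In the interaction the members (0) were 0 to 1 and the further genes (4) were 0 to 4 without a library, 2 with the replicate block and 0 with the outside-exon share. Same-numbered libraries of different groups did not deviate together (r from -0.33 to 0.34, with no comparison in which every pair exceeded 0.1), so the numbers were not taken as pairs. With the replicate block Aqp4 (adjusted p = 0.0400) and Clu (0.0188) passed, and Car14 (0.0889) and Glul (0.0771) did not. Over all genes, 1237 calls in Akita vs WT became 2078 with DESeq2, 507 with the block, 387 with pigment epithelium markers and 148 with only 2 groups, and 0 without WT replicate 1, without WT replicate 2 or with the outside-exon share. The 1562 calls in Akita + NACET vs Akita became 2391, 219, 601 and 700 in the same order, 1010 with no filter, 1 without Akita replicate 4 and 0 with the outside-exon share. The 2148 calls in Akita + NACET vs WT + NACET became 194 with the outside-exon share, 415 with pigment epithelium markers, 1363 with the block and 860 to 2710 without a library. The 240 calls in WT + NACET vs WT became 717 with DESeq2, 61 with the outside-exon share, 80 with pigment epithelium markers and 72 to 461 without a library. The 3289 calls in the interaction became 17 with the outside-exon share and 1699 to 3524 without a library. The 1 call in Akita + NACET vs WT became 10 with DESeq2, 3 with only the 2 groups, 2 with no filter or pigment epithelium markers, 0 with the block and 0 to 2 without a library. The genes most like the members had a lower Spearman's rho than r, 0.80 for Kank2 and 0.68 for Rcn2. With 3 WT libraries, small differences from WT could not be told from the spread between libraries.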
